A study of Mus musculus with 33 samples.

Results

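The AMPA and kainate receptor subunits are 9 genes, Gria1, Gria2, Gria3 and Gria4 for the AMPA receptor and Grik1, Grik2, Grik3, Grik4 and Grik5 for the kainate receptor. They were picked by gene symbol, as the families of these receptors, with earlier results of these data known, and each was found once among the 23366 genes of both count tables. Frontal cortex of C57BL/6 mice aged about 1 month was profiled by RNA-Seq in 33 offspring, 16 labelled female and 17 labelled male. Pregnant mice, and later the nursing dams together with their pups, inhaled filtered air, e-cigarette aerosol made from a liquid with 13 to 16 mg/mL nicotine, or e-cigarette aerosol without nicotine. All 3 treatments used the same strain and the same schedule of whole-body chamber sessions, and no group carried a genetic change. The female groups held 6 air, 5 nicotine and 5 no-nicotine libraries, and the male groups held 6, 6 and 5. The study's methods give 1 pup per litter. Each treatment had a chamber of its own, so treatment and chamber cannot be told apart.

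AMPA and kainate receptors are glutamate-gated channels built from 4 subunits each. AMPA receptors carry most of the fast excitatory current in cortex, and receptors that contain the edited GluA2 subunit encoded by Gria2 pass little calcium. Of the kainate subunits, those encoded by Grik1, Grik2 and Grik3 can form channels by themselves, whereas those encoded by Grik4 and Grik5 bind agonist with high affinity and need a partner of the first kind.

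The site that sets calcium passage lies in the pore loop, and is a glutamine codon in the genome that editing can turn into an arginine codon in Gria2, Grik1 and Grik2. The 30 coding bases around this codon are shown because they tell the subunits apart and mark the position at which Gria2 differs in function, although read counts per gene hold no information on editing. Bases were read from the mm9 transcript annotation, 5′ to 3′ on the coding strand, with the codon in capitals.
Gria1: ggggccttcatgCAGcaaggatgtgacatt
Gria2: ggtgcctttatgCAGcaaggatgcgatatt
Gria3: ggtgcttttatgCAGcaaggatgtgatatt
Gria4: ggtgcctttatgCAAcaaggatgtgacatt
Grik1: ggagctctcatgCAGcaaggatcggagctg
Grik2: ggagctctcatgCAGcaaggttctgagctc
Grik5: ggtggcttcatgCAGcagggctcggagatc
The Gria2 codon lies in exon 11 of 17 at chr3:80510833-80510835 on the minus strand. In this window Gria1, Gria3 and Gria4 matched Gria2 at 26, 28 and 27 of the 30 bases, and Grik1, Grik2 and Grik5 matched it at 21, 20 and 22. Over the whole coding sequence, pairs of AMPA subunits were 70.4 to 73.0% identical, pairs of kainate subunits 60.8 to 73.7%, and pairs across the families 58.7 to 63.3%. Of all 50-base stretches of a member's transcript, the length of the reads, 0.132% (Grik5) to 1.49% (Gria2) recurred in another gene with at most 2 mismatches. These stretches come from 1 transcript per gene.

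All positions are those of mm9. Gria1 lies on chr11:56824889-57143746, Gria2 on chr3:80488858-80606713, Gria3 on chrX:38754031-39031778 and Gria4 on chr9:4417899-4796234. Grik1 lies on chr16:87896441-88289947, Grik2 on chr10:48819266-49508572, Grik3 on chr4:125167944-125391417, Grik4 on chr9:42326218-42752576 and Grik5 on chr7:25794872-25857388. No annotated gene on the opposite strand overlapped a member, and genes on the same strand covered at most 0.923% of a member's exon bases (Gria3).

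Total counts per library ran from 19150562 to 27513174 in females and from 17845672 to 24787955 in males. Member counts ran from 176 (the lowest Grik1 library) to 14257 (the highest Gria1 library), and all 9 members passed the filter on low counts in both sexes. Levels are given as CPM, the usual read count scaled to library size, after TMM scaling, within 1 sex only, because females and males were sequenced in separate runs and sex and run cannot be told apart. The library labelled male nicotine replicate 21 went against its label, with Xist, which silences an X chromosome in female cells, at 215 CPM and 1 count over the Y-linked genes, where the other libraries of its group held 2140 to 3129 counts. It was kept under its label, and the fold changes that use its group are also given without it. Replicates are separate offspring.

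Markers of other cell types differed between the groups, and these values stand beside every comparison with air below. Their part in the results of the members was not tested beyond the fit with the cortical markers given further on. The 12 markers of cortical glutamatergic neurons summed to 3264 to 4122 CPM in the female air libraries, 2209 to 3013 CPM with nicotine and 1402 to 3103 CPM without nicotine. In males these sums were 3120 to 3681, 2252 to 3077 and 1205 to 2286 CPM, so that no exposed library of either sex reached the lowest air library of its sex. All 12 had a log2 fold change below 0 in each of the 4 comparisons with air, and 2, 11, 0 and 10 of them passed the test in females with nicotine, females without, males with and males without nicotine. Beside these calls and those of the markers below, 4.29%, 12.1%, 0% and 13.6% of all genes tested were called. All 7 markers of myelinating oligodendrocytes were called higher in the same comparisons except males with nicotine, where none was, and all 6 markers of basal forebrain cholinergic neurons followed the same pattern of calls. The cholinergic markers summed to 19.6 to 78.6 CPM in female air libraries, 82.5 to 192 CPM with nicotine and 107 to 283 CPM without. In males these sums were 34.2 to 80.1, 92.8 to 141 and 110 to 233 CPM. Although none was called in nicotine males, all 6 cholinergic markers had an unadjusted p below 0.05 there. Their median log2 fold change was 1.03. None of the 7 oligodendrocyte markers had such a p in that comparison. These values include the library labelled replicate 21. The 10 markers of striatal projection neurons had log2 fold changes above 0 throughout, with 3, 1, 0 and 2 called. Of the 8 markers of GABAergic interneurons, 2 were called higher and 1 lower in nicotine females, 4 higher and 2 lower in no-nicotine females, none in nicotine males, and 3 higher and 1 lower in no-nicotine males. Among these, Slc32a1, the vesicular GABA transporter, rose by 0.60, 0.74 and 0.71 on the log2 scale in the comparisons with calls, and the peptide gene Vip fell by 0.73, 0.80 and 0.88. Of 5 oligodendrocyte precursor markers 1, 2, 0 and 3 were called higher in the order of the cortical markers. Of 5 thalamus markers 2, 2, 0 and 1 were called higher, and 1 was called lower in no-nicotine females. In no-nicotine males 2 of 6 choroid plexus markers and 1 of 4 hypothalamus markers tested were called higher, and none of either list in the other 3 comparisons. Single genes taken from the marker lists were Slc17a7, the vesicular glutamate transporter of cortical neurons, at 2522 ± 222 CPM (SD, n = 6) in female air and 1388 ± 535 CPM (n = 5) without nicotine. Chat, which makes acetylcholine, was at 3.99 ± 1.55 and 17.8 ± 5.52 CPM in the same groups. Gad1, which makes GABA, was at 271 ± 23.9 and 367 ± 43.9 CPM, and Mbp, a myelin protein, at 4426 ± 318 and 6642 ± 1001 CPM. Tbr1, a transcription factor of cortical neurons, was at 190 ± 28.6 and 100.5 ± 37.9 CPM. Drd1 (the row Drd1a), a dopamine receptor of striatal neurons, was at 80.8 ± 27.9 and 111 ± 19.1 CPM. Gfap, an astrocyte filament, was at 241 ± 62.9 and 340 ± 21.7 CPM. Its mean was 257 CPM in nicotine females. In males the Gfap means were 263 CPM in air, 296 CPM with nicotine and 248 CPM without. Without nicotine, mean Gfap was thus above air in females and below air in males. The other single markers had no-nicotine means on the same side of air in both sexes. Astrocyte, microglia, endothelium and olfactory bulb markers gave no call in any comparison with air, and no marker of any list was at 0 in a whole group. In tissue RNA of this kind, fewer cells of a type and less RNA per cell cannot be told apart.

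In air, the order of the subunits per length was led by Grik5, which encodes the high-affinity GluK5 subunit. Its median level in female air libraries was 97.9 CPM per kilobase of exon, with a range of 90.3 to 102. Gria1 followed at 71.3 and Gria2 at 69.1 CPM per kilobase, and their ranges overlapped. Gria3 stood at 21.3, Gria4 at 15.1, Grik3 at 8.42, Grik2 at 6.17, Grik1 at 3.66 and Grik4 at 3.37 CPM per kilobase. In the male air libraries the order of the 9 medians was the same, with Grik5 at 93.5 and Grik4 at 3.32 CPM per kilobase. Neighbours whose ranges overlapped were Gria1 and Gria2 in both sexes, Grik1 and Grik4 in both sexes, Grik3 and Grik2 in females, and Grik5 and Gria1 in males. The place of some members depends on the length used. With the length of the transcript that has the longest coding sequence, Gria3 stood at 40.5 CPM per kilobase in females and Grik2 at 10.6 was above Grik3 at 8.42.

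**Figure D1:**
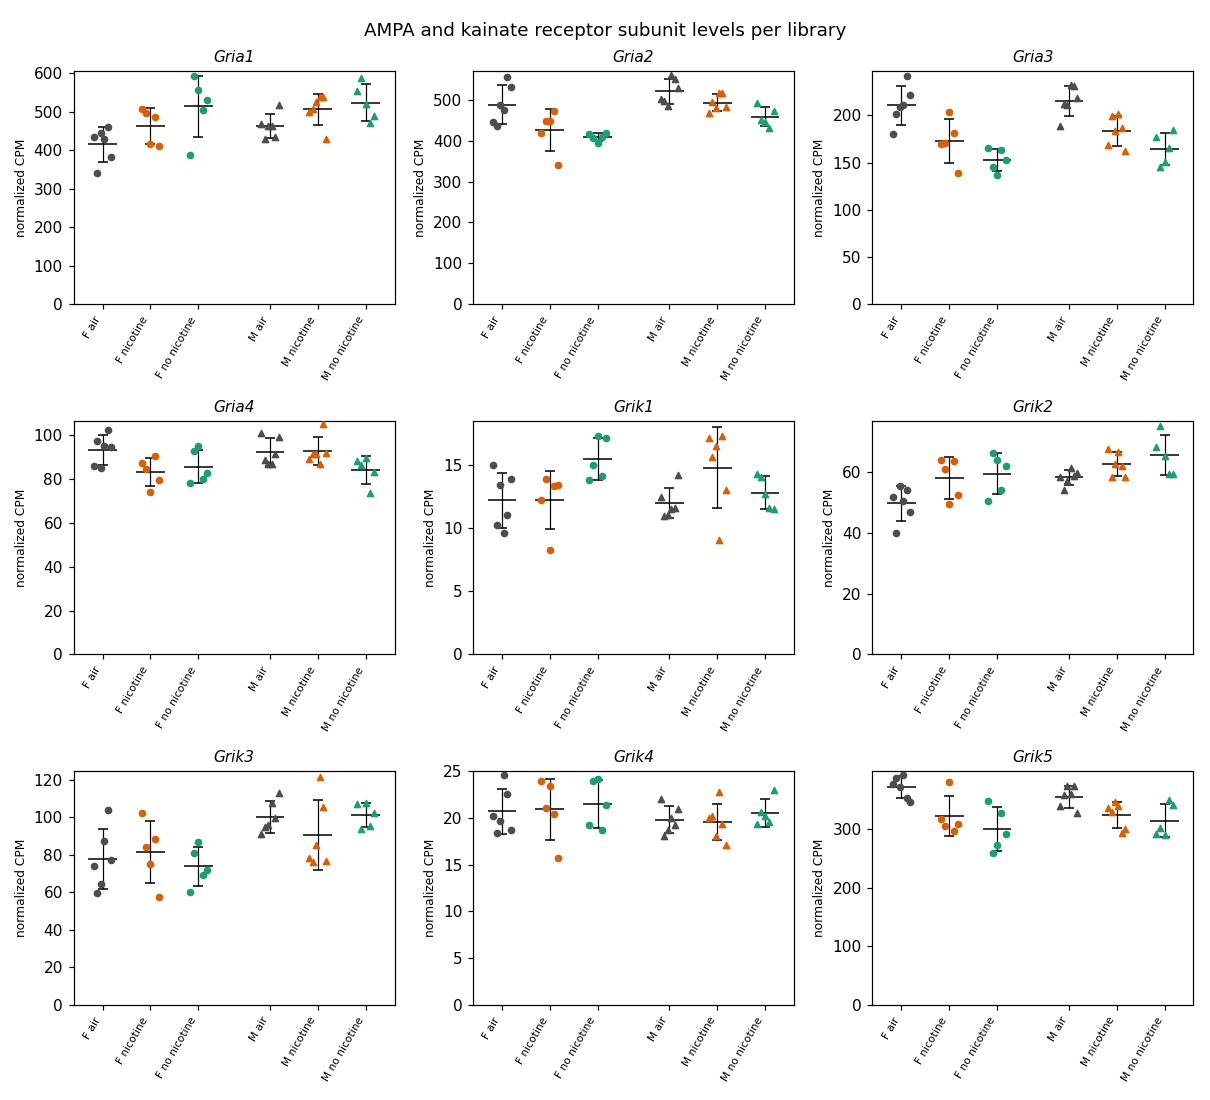
Normalized CPM (vertical axis, from 0) of each subunit gene in every library. Circles are females and triangles are males, grey for air, orange for nicotine and green for no nicotine, and the lines give the mean and SD of each group. Gria3 in the no-nicotine groups lies below all air libraries of the same sex, while Grik3 and Grik4 overlap between the groups of each sex.

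Gria3, which encodes the GluA3 subunit, was called lower without nicotine in both sexes. Its levels in the 6 female air libraries ran from 180 to 242 CPM with a median of 210 CPM. The 5 no-nicotine females were at 165, 145, 137, 163 and 153 CPM. All of these were below the lowest air library. The log2 fold change was -0.47 with a standard error (SE) of 0.0856, a level of 0.724 times that in air, and the adjusted p of edgeR's quasi-likelihood test was 0.0015. In males, air libraries ran from 188 to 232 CPM with a median of 215 CPM, and the no-nicotine libraries were at 177, 145, 150, 165 and 184 CPM. These too were all below air. The log2 fold change was -0.39 (SE 0.0715), with an adjusted p of 0.00068. The call held in each of the 16 female and 17 male fits that left out 1 library.

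With nicotine, Gria3 did not pass the threshold of 0.01 in either sex. The 5 nicotine females were at 169, 171, 203, 181 and 139 CPM, and 2 of them lay within the range of the air libraries. The log2 fold change was -0.29 (SE 0.0853), with an adjusted p of 0.035. The 6 nicotine males ran from 162 to 201 CPM with a median of 185 CPM, which overlapped the air range. Their log2 fold change was -0.23 (SE 0.0678) with an adjusted p of 0.12, and -0.24 (SE 0.0733) with an adjusted p of 0.18 without the library labelled replicate 21.

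Gria2, which encodes the subunit that limits calcium passage, was called lower in males without nicotine. Male air libraries ran from 486 to 560 CPM with a median of 516 CPM, and the no-nicotine males were at 492, 451, 445, 432 and 472 CPM. Only 1 of the 5 reached the air range. The log2 fold change was -0.18 (SE 0.0464), with an adjusted p of 0.0071. This call held in 11 of the 17 fits that left out 1 library, with adjusted p from 0.0042 to 0.021, and was lost without air replicate 37, 38 or 39 or no-nicotine replicate 3, 4 or 5. In females the air libraries ran from 436 to 556 CPM with a median of 480 CPM, and the no-nicotine females were at 416, 407, 395, 410 and 420 CPM. These 5 were all below air and lay within a narrow band, yet with a log2 fold change of -0.25 (SE 0.0760) the adjusted p was 0.022, so Gria2 was not called in females. With nicotine, Gria2 was at 418, 448, 448, 474 and 341 CPM in females and at 468 to 517 CPM in males, both overlapping air, with log2 fold changes of -0.20 (SE 0.0759) and -0.08 (SE 0.0442). The latter was -0.09 (SE 0.0467) without the library labelled replicate 21.

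Grik5 was called lower in females without nicotine. The air libraries ran from 346 to 393 CPM with a median of 375 CPM, and the no-nicotine females were at 349, 258, 273, 327 and 291 CPM. Replicate 1 alone lay within the air range. The log2 fold change was -0.31 (SE 0.0771) and the adjusted p was 0.0080. This call rested near the threshold, and it held in 5 of 9 fits with other settings. It also held in 6 of the 16 fits that left out 1 library, with adjusted p from 0.0012 to 0.028. It was lost without any 1 of the air libraries, nicotine replicate 1, or no-nicotine replicate 2, 3 or 5. In males without nicotine Grik5 was at 291, 301, 289, 349 and 341 CPM against 328 to 374 CPM in air, a log2 fold change of -0.18 (SE 0.0592) with an adjusted p of 0.035. With nicotine the log2 fold change was -0.21 (SE 0.0770) in females and -0.13 (SE 0.0564) in males, neither of them called, and in males it was -0.11 (SE 0.0568) without the library labelled replicate 21.

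Taking all 9 members, 2 were called lower and none higher in each no-nicotine comparison, and none was called with nicotine. Of all genes tested, 12.1% were called in females without nicotine and 13.6% in males without nicotine, with 7.03% and 7.47% called lower and 5.03% and 6.15% higher. With nicotine, 4.29% of all genes were called in females (2.32% lower, 1.98% higher) and 0 of 15293 in males, where 14.4% of genes had an unadjusted p below 0.05. The paper, using DESeq2, does report changed genes in nicotine males at an adjusted p below 0.01. The 0 given here therefore holds for the fit used here. At an adjusted p below 0.05, 1 member passed in females with nicotine (Gria3, beside 12.5% of all genes), 4 in females without (Gria1, Gria2, Gria3 and Grik5, 25%), 0 in males with (0.379%) and 4 in males without (Gria2, Gria3, Grik2 and Grik5, 24.7%). By the unadjusted measure, 5 members in females with nicotine, 6 in females without, 3 in males with and 6 in males without passed, beside 28.1%, 36.4%, 14.4% and 36% of all genes. Without the library labelled replicate 21, Gria3 was the only member to pass in males with nicotine, at an unadjusted p of 0.0047. Grik1 was then at 0.066 and Grik5 at 0.080. Members whose exposed and air libraries did not overlap numbered 2 in females without nicotine (10.7% of all genes), 1 in males without nicotine (12.4%), and 0 with nicotine in females (6.68%) and males (2.05%). The 9 members did not share a direction. In the no-nicotine comparisons 4 members in females and 5 in males had a log2 fold change above 0, and the median over the members was -0.08 and 0.01, against 0.01 and 0.02 over all genes. With nicotine the medians were 0.01 in females and -0.02 in males, against 0.00 and 0.01.

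**Figure D2:**
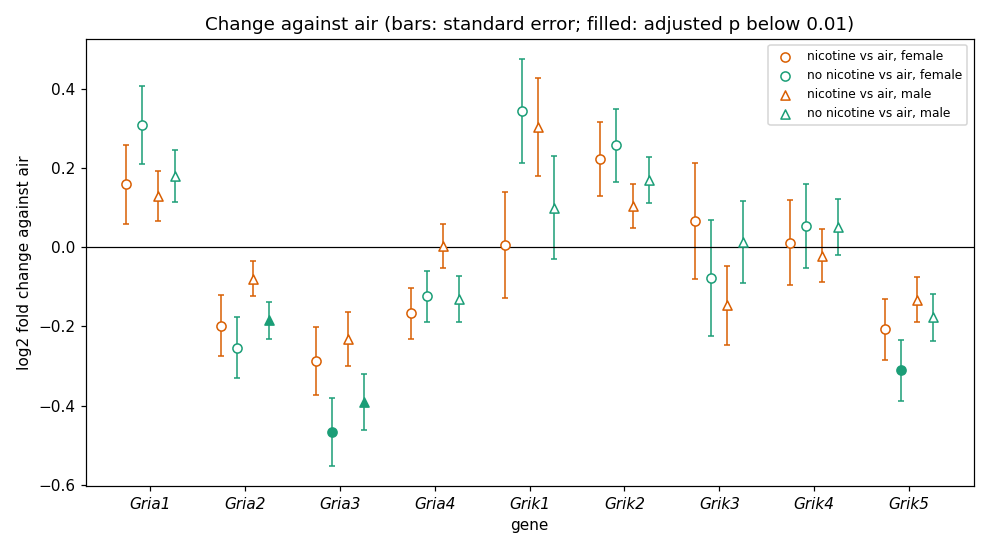
Log2 fold change against air (vertical axis) of each subunit gene (horizontal axis) in the 4 comparisons, with bars of 1 standard error. Filled symbols mark the 4 calls, Gria3 in both sexes, Gria2 in males and Grik5 in females, all without nicotine, and every Gria3 and Grik5 value lies below 0.

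Gria1, which encodes the GluA1 subunit that is inserted into synapses during plasticity, lay on the other side of 0 in all 4 comparisons, and was not called. Female air libraries ran from 341 to 462 CPM with a median of 431 CPM, and the no-nicotine females were at 388, 594, 556, 504 and 530 CPM. Of these, 4 were above every air library, and replicate 1 lay inside the air range. The log2 fold change was 0.31 (SE 0.0991), with an adjusted p of 0.031. In males without nicotine Gria1 was at 554, 587, 520, 470 and 490 CPM against 431 to 517 CPM in air, a log2 fold change of 0.18 (SE 0.0656). With nicotine the log2 fold change was 0.16 (SE 0.0993) in females and 0.13 (SE 0.0627) in males. In males it was 0.11 without the library labelled replicate 21.

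Gria4, the AMPA subunit gene with the lowest level here, was at 84.9 to 102 CPM in female air libraries, 74.2 to 90.6 CPM with nicotine and 78.2 to 94.9 CPM without. In males it was at 87.0 to 101, 86.7 to 105 and 73.7 to 89.6 CPM. The groups overlapped, and the log2 fold changes ran from -0.17 to 0.00 with no call. The highest nicotine male was the library labelled replicate 21, and without it the log2 fold change in that comparison was -0.04 (SE 0.0521).

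Because Gria1 and Gria2 lay on opposite sides of 0, their ratio is given for each library as a description. Ratios of Gria1 to Gria2 counts, not corrected for length, were 0.720 to 0.975 in female air (median 0.866). They were 1.21, 1.11, 0.928, 1.03 and 1.21 with nicotine and 0.931, 1.46, 1.41, 1.23 and 1.26 without nicotine. In each exposed female group 1 library lay inside the air range. In males the ratios were 0.790 to 0.975 in air (median 0.901), 0.891 to 1.10 with nicotine (median 1.04) and 1.13, 1.30, 1.17, 1.09 and 1.04 without nicotine, so that no no-nicotine male reached the air range. The summed level of the 4 AMPA genes differed little between groups, at 1208 ± 96.1 CPM in female air (SD, n = 6), 1146 ± 103 CPM with nicotine (n = 5) and 1163 ± 71.0 CPM without (n = 5). In males it was 1292 ± 55.2, 1276 ± 70.2 and 1232 ± 64.6 CPM. Within that sum the Gria1 share went from 34.4 ± 2.66% in female air to 40.5 ± 2.63% and 44.0 ± 4.31%, and the Gria3 share from 17.5 ± 1.01% to 15.1 ± 1.54% and 13.2 ± 1.76%. In males the Gria1 share was 35.9 ± 1.84%, 39.7 ± 1.53% and 42.5 ± 2.41%, and the Gria3 share 16.7 ± 1.01%, 14.4 ± 0.681% and 13.4 ± 1.45%. Without the library labelled replicate 21, nicotine males (n = 5) had an AMPA sum of 1262 ± 68.3 CPM, a Gria1 share of 39.6 ± 1.70%, a Gria3 share of 14.5 ± 0.711% and the same range of ratios.

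**Figure D3:**
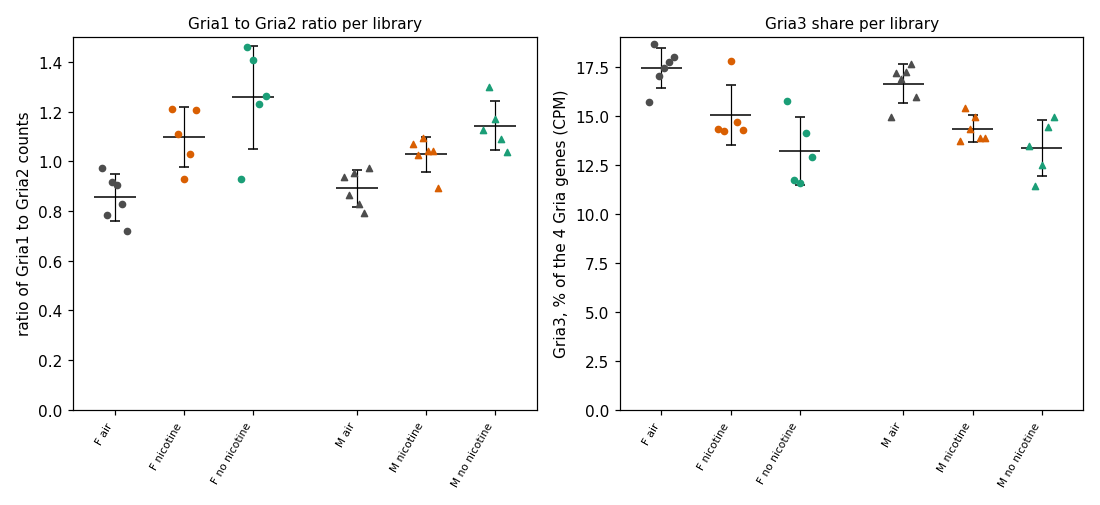
Ratio of Gria1 to Gria2 counts (left, vertical axis) and Gria3 as a percentage of the summed CPM of the 4 Gria genes (right, vertical axis) in every library, by group, with mean and SD. The Gria1 to Gria2 ratio of each no-nicotine male lies above all male air libraries, which end at 0.975.

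Among the kainate subunits that form channels by themselves, Grik2 had log2 fold changes above 0 throughout and no call. Its levels were 39.7 to 55.3 CPM in female air and 63.9, 60.9, 49.3, 63.5 and 52.3 CPM with nicotine, and 50.5, 66.2, 64.0, 54.1 and 62.0 CPM without. The log2 fold changes were 0.22 (SE 0.0928) and 0.26 (SE 0.0925). In males it was at 54.0 to 61.3 CPM in air, 58.3 to 67.4 CPM with nicotine and 68.1, 75, 65.3, 59.5 and 59.2 CPM without, with log2 fold changes of 0.10 (SE 0.0561) and 0.17 (SE 0.0586) and an adjusted p of 0.041 for the latter. Without the library labelled replicate 21 the value for nicotine males was 0.11 (SE 0.0606).

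Grik1 was at 9.63 to 15 CPM in female air, 8.27 to 13.9 CPM with nicotine and 13.8 to 17.2 CPM without. The log2 fold changes were 0.01 (SE 0.134) and 0.34 (SE 0.131). In males it was at 11 to 14.1 CPM in air, 9.02 to 17.3 CPM with nicotine and 11.5 to 14.2 CPM without, with log2 fold changes of 0.30 (SE 0.124) and 0.10 (SE 0.130). The value for nicotine males was 0.25 (SE 0.128) without the library labelled replicate 21. Grik1 thus overlapped air in all 4 comparisons.

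Grik3 varied more between libraries than the other members in the female air and nicotine groups. Its female levels ran from 59.7 to 104 CPM in air, 57.3 to 102 CPM with nicotine and 60.3 to 86.6 CPM without. In males it was at 90.9 to 113, 76.4 to 122 and 93.9 to 108 CPM. Its log2 fold changes ran from -0.15 to 0.07, none of them with an unadjusted p below 0.05. Grik4, the other high-affinity subunit, was at 18.4 to 24.6 CPM in female air and 18 to 22 CPM in male air, with log2 fold changes from -0.02 to 0.05. In nicotine males without the library labelled replicate 21, Grik3 was at -0.20 (SE 0.101) and Grik4 at -0.02 (SE 0.0728). No difference in either gene passed the test.

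The 5 kainate genes summed to 532 ± 21.9 CPM in female air, 495 ± 35.1 CPM with nicotine and 470 ± 18.9 CPM without, and to 546 ± 16.4, 512 ± 32.0 and 514 ± 20.1 CPM in males. Without the library labelled replicate 21 the nicotine males were at 515 ± 35.0 CPM. Grik5 made up 69.9 ± 3.36% of that sum in female air and 63.6 ± 5.54% without nicotine, and Grik2 9.33 ± 0.962% and 12.7 ± 1.92%. The mean share of Grik5 was below that in air and the mean share of Grik2 above it. In males without nicotine Grik5 was at 61.0 ± 3.17% and Grik2 at 12.8 ± 1.66%, against 65.1 ± 2.23% and 10.7 ± 0.477% in air.

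Nicotine and no-nicotine aerosol were also compared with each other within each sex. No member was called in either sex, beside 0 of 15158 genes in females and 0.248% of genes in males. The log2 fold changes of the members, nicotine against no nicotine, ran from -0.34 (Grik1) to 0.18 (Gria3) in females and from -0.16 (Grik3) to 0.20 (Grik1) in males. For Gria3 the values were 0.18 (SE 0.0890) and 0.16 (SE 0.0714). In females 8.36% of all genes and 1 member had an unadjusted p below 0.05, and in males 20.1% of genes and 3 members did. Without the library labelled male replicate 21, 5 genes were called in males, none of them a member, and the members ran from -0.21 (Grik3, SE 0.105) to 0.15 (Gria3, SE 0.0765). No member then had an unadjusted p below 0.05 in males, and the lowest was 0.061 (Gria3). The 2 exposures were each set against the same air libraries, so their changes against air are not independent of each other.

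Female and male changes were compared directly in a fit of all 6 groups. No member and no gene of 15105 differed, for nicotine or for no nicotine. The difference, female minus male, ran from -0.29 (Grik1, SE 0.191) to 0.22 (Grik3, SE 0.184) on the log2 scale with nicotine and from -0.13 (Grik5, SE 0.0984) to 0.25 (Grik1, SE 0.194) without. The lowest unadjusted p was 0.076 (Gria4, nicotine), and 6.47% of all genes with nicotine and 4.91% without had an unadjusted p below 0.05. Gria2 and Grik5, each called in 1 sex only, had differences of -0.06 (SE 0.0892) and -0.13 (SE 0.0984) without nicotine, so a difference between the sexes was not shown for either. Without the library labelled male nicotine replicate 21, no gene differed, and with nicotine the members ran from -0.23 (Grik1, SE 0.195) to 0.27 (Grik3, SE 0.188).

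The levels of 3 members are set beside the cortical neuron markers, since the groups that differed in the members also differed in these. When the mean log2 level of the 12 markers was added to the fit, no member was called in any comparison with air. Gria3 without nicotine then had a log2 fold change of -0.11 (SE 0.111, adjusted p of 0.895) in females and -0.20 (SE 0.127, adjusted p of 0.483) in males. Grik5 in females without nicotine was at 0.01 (SE 0.0906), and Gria2 in males without nicotine at -0.16 (SE 0.0897, adjusted p of 0.421). Gria1 was at -0.05 in females and -0.07 in males without nicotine, on the other side of 0 from the fit without the markers. The marker sums of the no-nicotine and air libraries did not overlap in either sex, so the marker level and the exposure cannot be told apart.

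**Figure D4:**
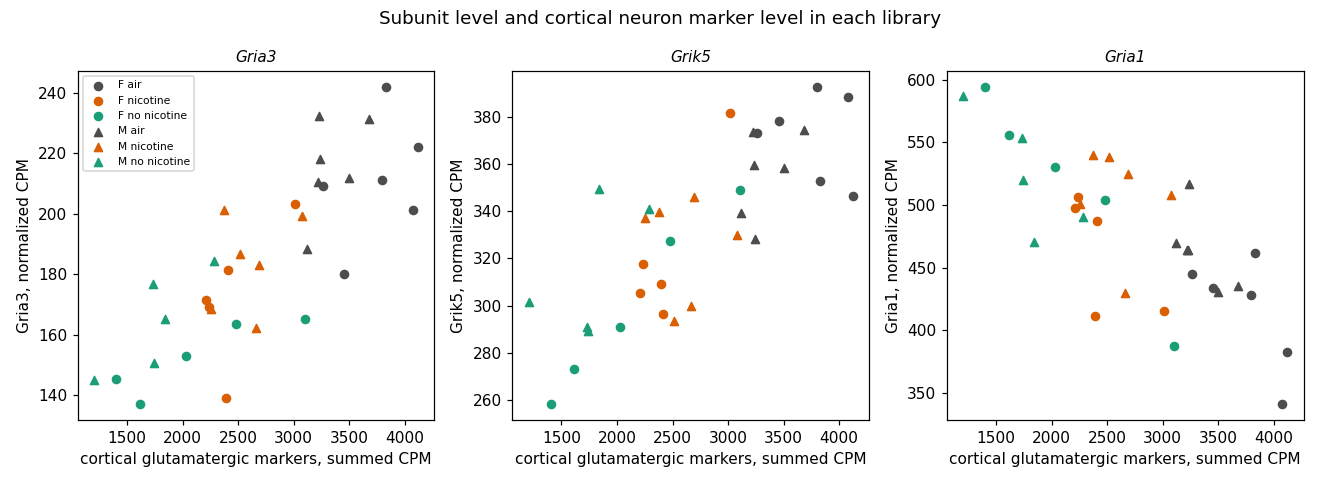
Normalized CPM of Gria3, Grik5 and Gria1 (vertical axes, which do not start at 0) against the summed CPM of the 12 cortical glutamatergic neuron markers (horizontal axes) in each library. Circles are females and triangles are males, and the air libraries of both sexes lie at the right, at 3120 or more. Gria3 in the no-nicotine libraries lies below all air libraries of the same sex, while Grik5 and Gria1 of some no-nicotine libraries lie within the air range.

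How alike the members varied within groups was described by Pearson's r of deviations of log2 CPM from the group means, over 16 female and 17 male libraries that share a sequencing run. Gria1 and Grik2 varied alike, with r of 0.93 in females and 0.72 in males, as did Gria2 and Gria3 with 0.83 and 0.68. Gria4 and Grik5 varied in opposite directions, with r of -0.73 and -0.81. Over all genes, the 2 most like each member by the lower r of the sexes were Glra2 (0.91) and Zkscan16 (0.85) for Gria1, Stxbp5 (0.83) and A830018L16Rik (0.78) for Gria2, and Mmp17 (0.82) and Rprml (0.80) for Gria3. For Gria4 they were Zfp397 (0.84) and Trip11 (0.77), for Grik1 Camk2d (0.82) and Mab21l1 (0.81), and for Grik2 Fndc9 (0.84) and Gad2 (0.81), the last of which makes GABA. For Grik3 they were Dlx2 (0.81) and Rftn1 (0.78), for Grik4 Foxo6 (0.80) and Col6a5 (0.73), and for Grik5 Agap2 (0.93) and Ppp1r9b (0.91).

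The proteins that assemble with AMPA receptors were counted from a list, of which 18 of 19 genes were measured. In females 2 of the 18 were called lower with nicotine and 5 without, and in males 0 were called with nicotine and 3 lower and 1 higher without. Of all genes tested, 4.29% and 12.1% were called in these female comparisons, and 0% and 13.6% in the male ones. Frrs1l, needed for early AMPA receptor assembly, fell from 227 ± 33.1 CPM (SD, n = 6) in female air to 139 ± 13.8 CPM (n = 5) without nicotine, a log2 fold change of -0.71 (SE 0.110, adjusted p of 0.00084), and was called lower with nicotine as well at -0.55 (SE 0.109). In males without nicotine it fell by 0.50 on the log2 scale (SE 0.0679). Cacng3, a transmembrane AMPA receptor regulatory protein, fell by 0.46 in females and by 0.44 in males without nicotine. Shisa6 fell by 0.39 in nicotine females, Shisa7 by 0.27 and Gsg1l by 0.50 in no-nicotine females, and Cnih3 by 0.70 in no-nicotine females and 0.52 in no-nicotine males, while Cacng4 rose by 0.39 in no-nicotine males. The median log2 fold change over the 18 was -0.13, -0.19, -0.07 and -0.14 in females with, females without, males with and males without nicotine.

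Of 14 genes for trafficking and anchoring of AMPA receptors, 1 was called lower in females with nicotine, 4 lower and 1 higher in females without, 0 in males with and 5 lower in males without nicotine. The shares of all genes called were 4.29%, 12.1%, 0% and 13.6% in that order. Nptx1 and Nptx2, secreted pentraxins that cluster AMPA receptors, fell by 0.63 and 0.65 on the log2 scale in females and by 0.76 and 0.92 in males without nicotine. Nptx1 also fell by 0.59 in nicotine females. Nptx1 is among the cortical neuron markers too, so it counts in both lists. Nptxr, a membrane-bound pentraxin, fell by 1.34 and 2.03 in the same 2 comparisons. Camk2a, the kinase of synaptic plasticity, fell by 0.59 in no-nicotine females and 0.50 in no-nicotine males, and Nsf, which drives receptor recycling, by 0.32 in no-nicotine males, whereas Grip2, an anchoring protein, rose by 0.27 in no-nicotine females. The median over the 14 was -0.08, -0.18, -0.10 and -0.12 in the order above.

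Of 5 kainate receptor partners, C1ql2, a secreted protein that recruits kainate receptors, rose in both sexes without nicotine. It went from 3.30 ± 1.66 to 9.67 ± 2.88 CPM in females, a log2 fold change of 1.54 (SE 0.329, adjusted p of 0.0034), and from 3.03 ± 1.59 to 8.91 ± 2.76 CPM in males, a change of 1.55 (SE 0.284, adjusted p of 0.00070). C1ql3, of the same family, fell by 0.80 and 0.89 on the log2 scale. Klhl17, which binds Grik2 protein, rose by 0.18 in no-nicotine females. The 3 RNA editing enzymes gave no call in any comparison.

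Of 8 genes for glutamate transport and synthesis, 1 was called higher and 1 lower in nicotine females, 1 higher and 2 lower in each no-nicotine comparison, and none in nicotine males. Slc17a8, a vesicular transporter found outside cortical projection neurons, rose by 0.81 in nicotine females and by 0.65 and 0.70 in no-nicotine females and males. Slc17a7, the vesicular transporter of cortical projection neurons, fell by 0.86 in no-nicotine females and by 1.03 in no-nicotine males. Among the 9 NMDA and delta receptor subunits, the relatives most like the members, 1 was called lower in nicotine females and 3 in each no-nicotine comparison. These were Grin2a, Grin2b and Grin1, which fell without nicotine by 1.08, 0.97 and 0.32 on the log2 scale in females and by 0.91, 0.81 and 0.18 in males, and Grin2a fell by 0.88 in nicotine females. In each no-nicotine comparison 3 of these 9 genes were called, beside 2 of the 9 members and 12.1% of all genes in females and 13.6% in males. With nicotine 4.29% of all genes were called in females and 0% in males. These shares also stand beside the counts for the 8 transport and synthesis genes.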

How the data were processed

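Total RNA of frontal cortex from 33 offspring was sequenced by the authors as single reads of 50 bases, females and males in separate runs. The submitters' processing notes name bcl2fastq, Bowtie, SAMtools, HTSeq and DESeq2, and the mm9 build. The authors deposited 1 table of raw read counts per sex, with no normalization, and these counts were tested. They also deposited the same counts divided by 1 size factor per sample, not used here. Of 34 columns in the count tables, 33 matched a labelled sample and 1 was not used.

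Genes with a CPM summed over the libraries of a sex of at least 5 were tested. Counts were scaled by TMM and fitted with edgeR 4.0.16 (quasi-likelihood test, 3 groups of a sex in 1 fit, Benjamini-Hochberg adjustment over all genes tested). A gene was called at an adjusted p below 0.01. "Fell", "rose" and "lower" mark calls. Fold changes are those of the fit, and values per library are normalized CPM. Levels per length used the exon union of the mm9 annotation. Tests were tried on simulated counts made from these libraries, with 200 changed genes drawn only from those above the median level. Of such genes changed 2-fold, 99.5% were called for nicotine against air in females (15158 genes) and 99% in males (15293). Of those changed 1.25-fold, 44.5% and 72% were called, with at most 4 false calls.

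The members and the gene lists were chosen with earlier results of these data known. The genes named are all 9 members, for each pathway list and comparison with air up to 3 called genes per direction with the smallest p, the 2 genes most like each member, and 7 markers. Nptxr, Gsg1l, Slc32a1, Vip and the values of Camk2a in males and Cnih3 in females were added after their values were seen. Fits were repeated with other scalings, filters, tests (DESeq2 1.42.0, limma 3.58.1 voom), a replicate block, a marker covariate and each library left out. R 4.3.3, Python 3.11.15, pandas 2.3.3 and matplotlib 3.10.9 were used. One listed gene, Shisa8, had no row. Another gene that the naming rule picks is not reported here. Counting error alone was 7.54% at the lowest Grik1 library (176 counts) and 1.10% at the lowest Gria2 library.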

Additional observations from a re-analysis of the deposited data

Results flagged for a closer look

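Of 54 groups (9 members in 6 groups), 3 held a library far from the others of its group, where chance gives about 5%. Gria1 in the male nicotine replicate 22 was the lowest of its 6 libraries at 430 CPM, with the nearest at 501 CPM. Gria4 in the library labelled male nicotine replicate 21, which went against its sex label, was the highest of its 6 at 105 CPM, with the nearest at 91.9 CPM. Grik5 in female nicotine replicate 3 was the highest of its 5 libraries at 381 CPM, with the nearest at 318 CPM.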

How the results depend on the processing

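Counting error at the lowest library of a member was 1.10% (Gria2) to 7.54% (Grik1). Members called in females without nicotine numbered 2, and became 1 with upper quartile normalization, 1 with no filter on low counts, 3 with the DESeq2 test (Gria2 added), 4 with limma-voom (Gria1 and Gria2 added), 1 with the replicate block (Gria3), 0 when the mean level of the cortical markers was a term in the fit, and 1 to 3 when 1 library was left out. In males without nicotine the 2 became 3 with limma-voom (Grik5 added), 1 in a fit of only the 2 groups compared (Gria3), 0 with the marker score, and 1 to 2 when 1 library was left out, where Gria2 was the call lost. The other 6 counts, among them those between the sexes, stayed at 0 in every alternative run. The labels number the replicates and do not say whether female libraries with the same number were a pair. Of 14 pairs with the same number, 4 had a correlation of deviations above 0.1. The median was 0.014 over these pairs and -0.0040 over 71 other pairs. Of 16 libraries, 7 were most like one with their own number. These values do not settle whether the numbers mark a pairing. With the replicate block, 136 genes instead of 651 were called with nicotine and 736 instead of 1829 without. Male groups share no replicate numbers. Using transcript length in place of the exon union was chosen after seeing the data.

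Counted by member and refit, the sign of a difference changed 77 times, 53 on leaving out 1 library and 24 in other settings. A single refit can hold several of these changes. Only 1 of them was for a call, Grik5 in no-nicotine females with the marker score. With the marker score, log2 fold changes against air in females with nicotine were -0.088 (Gria1), -0.40 (Grik1), -0.0047 (Grik2) and 0.026 (Grik5), and without nicotine -0.055 (Gria1), -0.21 (Grik1), -0.070 (Grik2) and 0.014 (Grik5). In males they were -0.0095 (Gria4), -0.029 (Grik2) and 0.0082 (Grik4) with nicotine and -0.067 (Gria1), -0.23 (Grik1) and -0.15 (Grik2) without. For nicotine against no nicotine they were 0.065 (Grik2) in females, and 0.094 (Gria1), 0.12 (Grik2) and -0.013 (Grik5) in males. With the replicate block, females gave -0.043 (Grik1, nicotine), -0.00084 (Grik4, no nicotine) and 0.019 (Grik4, nicotine against no nicotine). Gria4 in nicotine males was -0.00067 with DESeq2 size factors and -0.00070 with the DESeq2 test, and its difference between the sexes without nicotine was -0.017 with limma-voom. The cause of these changes was not tested.

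Leaving out 1 library gave, in nicotine females, -0.056 to 0.12 (Grik1), -0.028 to 0.17 (Grik3) and -0.041 to 0.10 (Grik4), and in no-nicotine females -0.15 to 0.023 (Grik3). In males it gave -0.036 to 0.033 (Gria4) and -0.068 to 0.016 (Grik4) with nicotine and -0.016 to 0.050 (Grik3) without. For nicotine against no nicotine in females it gave -0.079 to 0.020 (Grik2) and -0.089 to 0.054 (Grik4). Differences between the sexes with nicotine ran from -0.013 to 0.075 (Gria1), -0.11 to 0.019 (Gria3) and -0.016 to 0.13 (Grik4), and without nicotine from -0.029 to 0.041 (Gria4), -0.15 to 0.014 (Grik3) and -0.039 to 0.062 (Grik4).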
